A study of Homo sapiens with 8 samples.

Results

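Antiviral effectors of the OAS, MX and XAF1 genes were followed in SK-UT-1 cells, an established line from a human uterine leiomyosarcoma, a smooth muscle cancer of the uterus. The 7 genes OAS1, OAS2, OAS3, OASL, MX1, MX2 and XAF1 were picked by name from the 60282 genes listed, and all 7 were among the 14073 genes that passed the filter on low counts. They were picked with their change between the same groups known, so their values are given as a description, without a test. The lists of other genes were also chosen with earlier results of these data known. Their shares of called genes are therefore not independent of this contrast. Cells had been treated with TP-472, an inhibitor of the bromodomain proteins BRD9 and BRD7, at 5 µM for 48 h (4 libraries) or with vehicle, which was DMSO (4 libraries). Both groups were the same cell line grown in medium with fetal bovine serum, with no added interferon or virus in the sample descriptions. Total counts ran from 32574716 to 36634184 in the vehicle libraries and from 36246466 to 38545695 in the TP-472 libraries. The study's methods state for its experiments in general that replicates were biological, while the sample descriptions do not say that these libraries came from separate cultures, so the p-values given for other genes measure the spread between these samples, which may be technical in part.

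Vehicle replicate 3 stood apart from the other vehicle libraries. Its median Spearman correlation with its own group over all genes tested was 0.914, while that of the other vehicle libraries was at least 0.988, so results are also given without it. Of 10 smooth muscle markers, CALD1 and ACTA2 were present at 199.6 ± 15.3 and 160.3 ± 16.7 CPM in vehicle (SD, n = 4), CPM being counts scaled to a common library size and, by the TMM method, for composition. MYH11 and ACTG2, which mark mature smooth muscle, had at most 1 count in any vehicle library, and MYOCD, a regulator of that program, had at most 5. With TP-472 they had 7 to 10 counts (MYH11), 0 to 5 (ACTG2) and 1 to 8 (MYOCD) per library. These 3 markers were thus at or near 0 in the line, while the other 7 of the list passed the filter on low counts. Among those 7, SMTN was at 52.9 to 158 CPM and TAGLN at 27.2 to 34.3 CPM in the vehicle libraries.

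The OAS proteins bind double-stranded RNA, and those with catalytic activity (OAS1, OAS2 and OAS3) make 2′-5′-linked oligoadenylate, a messenger that starts the decay of RNA in the cell. OASL lacks this activity and is known to act on RIG-I signalling. The MX proteins are dynamin-like GTPases that block viruses after entry, and XAF1 is named for its binding to XIAP, an inhibitor of caspases. In many cell types the genes are switched on by type I interferon, through a complex that holds STAT2 and IRF9 and binds interferon-stimulated response elements in promoters.

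To show the letters that such elements take in these genes, promoter windows of RefSeq on GRCh38.p14, 250 bases before to 50 bases after the start, were searched on both strands for a pair of GAAA words set 1 base apart (GAAANGAAA) or 2 bases apart, and matches of these motifs can overlap. OAS1, OAS3, MX1 and XAF1 had a window in the table, and OAS2, OASL and MX2 had none. The stretches of 30 bases shown were chosen because they hold a match nearest the start, or a pair of overlapping matches, and capitals mark the matched letters. All are read 5′ to 3′ on the plus strand, which is the strand of these 4 genes. They lie at chr12:112906935-112906964 for OAS1, chr12:112938319-112938348 and chr12:112938452-112938481 for OAS3, chr21:41420557-41420586 for MX1 and chr17:6756031-6756060 for XAF1.
OAS1: cccttctgagGAAACGAAAccaacagcagt
OAS3, upstream: ctagaaaGAAACGAAACTGAAAgcagggaa
OAS3, at the start: agccgggcggGAAAACGAAAccagaaatcc
MX1: gcgagcaGAAATGAAACCGAAActgaattg
XAF1: ttgcctgcaaGAAACGAAActcaaccgaaa

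Relative to the start site, the OAS1 stretch covers positions -27 to 3, the OAS3 stretches -155 to -126 and -22 to 8, the MX1 stretch -1 to 29 and the XAF1 stretch -15 to 15. The 15 capitals of the upstream OAS3 stretch and of the MX1 stretch hold both spacings, overlapping each other. Of the 7 windows of these 4 genes, 6 held either motif, against 2246 of the 35116 windows in the table (6.40%). GAAANGAAA alone was in 3.12% of all windows (3.87% of all genes with a window) and was present for all 4 genes. The motif with 2 bases between was in 3.57% of all windows (4.38% of genes) and was present for OAS3 and MX1. TTCNNNGAA, the letters of the site for STAT dimers, was in 7.66% of all windows (9.38% of genes) and was present for OAS1 and MX1. Among 56 other interferon-stimulated genes with a window, 43 (76.8%) held either of the first 2 motifs, against 7.83% of all genes with a window. For all 4 genes the RefSeq starts used here lie inside the GENCODE spans given for the genes. A match is a run of letters in this window and does not show binding.

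All 7 genes were lower with TP-472, and for each of them the groups did not overlap. A gene was called when edgeR's quasi-likelihood test gave an adjusted p below 0.05 and the fold change was over 1.5, and 7 of 7 were called lower, while 14.9% of all genes tested were, and 26.9% were called in either direction. A lower TP-472 group without overlap was seen in 21.6% of all genes tested. Nothing is read from these counts, since the genes were picked on this contrast. Their median log2 fold change was -2.23, or -2.19 without vehicle replicate 3, beside a median of -0.03 over all genes tested, with the 5th to 95th percentile from -1.30 to 0.97. What remained with TP-472 was 9.77% to 25.8% of the vehicle mean. A bulk library cannot tell fewer cells that carry a transcript from less of the transcript in each cell.

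The summed level of the 7 genes was 724, 639, 891 and 618 CPM in vehicle replicates 1 to 4 and 159.6, 157, 166 and 161 CPM in TP-472 replicates 1 to 4. Vehicle replicate 3 was the highest of the 8 libraries, and the TP-472 libraries lay close together.

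**Figure D1:**
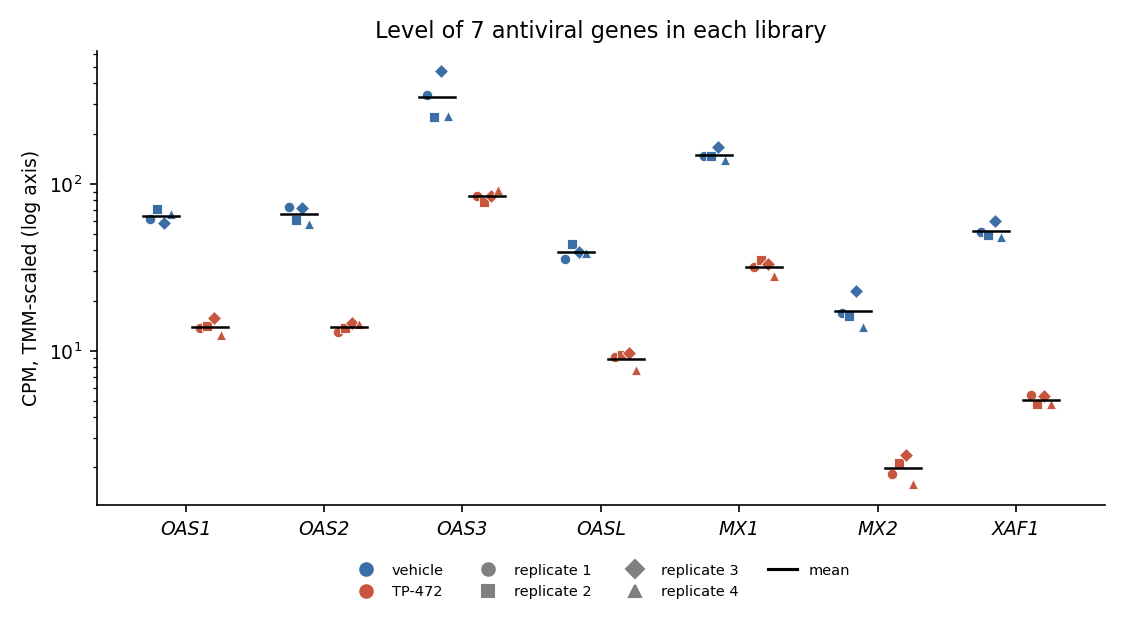
CPM of each gene in each library on a log axis, vehicle in blue and TP-472 in red, with the replicate shown by the marker and the mean by the bar. For all 7 genes the red points lie below the blue ones, with the widest gap for XAF1 and the narrowest for OAS3.

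Of the OAS genes, OAS1, OAS2 and OAS3 lie in 1 cluster on chromosome 12 (GRCh38, GENCODE annotation). OAS1 (ENSG00000089127.13, chr12:112906777-112933222, plus strand) encodes the smallest of the catalytic enzymes. Its level was 62.0, 70.8, 58.7 and 66.3 CPM in vehicle replicates 1 to 4 and 13.7, 14.0, 15.6 and 12.5 CPM in TP-472 replicates 1 to 4. The highest TP-472 library was thus far below the lowest vehicle library, which was replicate 3. The means were 64.5 ± 5.26 and 14.0 ± 1.29 CPM (SD, n = 4), and the log2 fold change was -2.20 with a standard error of 0.116, and -2.25 without vehicle replicate 3. The TP-472 level of OAS1 was 21.7% of vehicle.

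OAS2 (ENSG00000111335.13, chr12:112978395-113011723, plus strand) also encodes a catalytic enzyme. It was at 73.0, 60.5, 71.4 and 57.8 CPM in the vehicle libraries and at 12.9, 13.8, 14.8 and 14.5 CPM in the TP-472 libraries. Vehicle replicates 1 and 3 were high and 2 and 4 low, and the groups did not overlap. The means were 65.7 ± 7.65 and 14.0 ± 0.825 CPM (SD, n = 4), with a log2 fold change of -2.23 (SE 0.119) and 21.3% of the vehicle mean remaining. Without vehicle replicate 3 the log2 fold change of OAS2 was -2.19.

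OAS3 (ENSG00000111331.13, chr12:112938352-112973249, plus strand), the longest OAS protein and the one with the highest affinity for long double-stranded RNA, was at 339.9, 251, 472 and 255 CPM in the vehicle libraries and at 84.8, 78.3, 85.2 and 91.8 CPM in the TP-472 libraries. OAS3 was the most variable of the 7 in vehicle, with replicates 1 and 3 high, whereas its TP-472 libraries lay close together. Its means were 329.6 ± 103.6 and 85.0 ± 5.51 CPM (SD, n = 4), a log2 fold change of -1.95 (SE 0.207). Without vehicle replicate 3 this was -1.74, and in both fits it was the smallest change among the 7.

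OASL (ENSG00000135114.12, chr12:121019111-121039242, minus strand) is on the same chromosome but 8.01 Mb from OAS2. Its level was 35.3, 43.5, 38.9 and 38.3 CPM in vehicle and 9.14, 9.41, 9.66 and 7.69 CPM with TP-472. Vehicle replicate 3 was in the middle of its group for OASL, and the groups did not overlap. The means of OASL were 39.0 ± 3.39 and 8.97 ± 0.883 CPM (SD, n = 4), with a log2 fold change of -2.12 (SE 0.124), or -2.13 without vehicle replicate 3. OASL, which has no synthetase activity, therefore had a change that lay between those of OAS1 and OAS3.

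MX1 and MX2 are neighbours on chromosome 21, separated by 10913 bases. MX1 (ENSG00000157601.14, chr21:41420304-41459214, plus strand), whose protein acts against influenza and many other viruses, was at 146, 148, 167 and 139 CPM in the vehicle libraries and at 31.7, 34.9, 33.0 and 28.2 CPM in the TP-472 libraries. Its vehicle libraries were the least variable of the 7 genes, and no library of one group came near the other. The means were 149.7 ± 11.9 and 32.0 ± 2.82 CPM (SD, n = 4), a log2 fold change of -2.23 (SE 0.111), or -2.18 without vehicle replicate 3, with 21.3% remaining. MX2 (ENSG00000183486.13, chr21:41361943-41409390, plus strand), whose protein is known for its action against HIV-1, was at 16.8, 16.2, 22.9 and 13.8 CPM in vehicle and at 1.84, 2.14, 2.39 and 1.59 CPM with TP-472. These levels rest on 492 to 791 counts per vehicle library and on 60 to 86 counts per TP-472 library. Its means were 17.4 ± 3.86 and 1.99 ± 0.350 CPM (SD, n = 4), a log2 fold change of -3.13 (SE 0.209), or -2.98 without vehicle replicate 3, and 11.4% remained.

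XAF1 (ENSG00000132530.17, chr17:6755447-6775647, plus strand) had the largest change of the 7. It was at 51.3, 49.6, 60.04 and 47.8 CPM in the vehicle libraries and at 5.44, 4.82, 5.35 and 4.78 CPM in the TP-472 libraries. The lowest vehicle library was 8.79 times the highest TP-472 library for XAF1, and 2.73 times for OAS3, the extremes of this ratio among the 7. XAF1 means were 52.2 ± 5.44 and 5.10 ± 0.345 CPM (SD, n = 4), a log2 fold change of -3.35 (SE 0.125), or -3.28 without vehicle replicate 3, and 9.77% remained. The 7 genes thus had 2 sizes of change, 3.88- to 4.70-fold for OAS1, OAS2, OAS3, OASL and MX1 and 8.77- to 10.2-fold for MX2 and XAF1. Vehicle replicate 3 lay above the mean of its own group by 0.57 for OAS3, 0.42 for MX2, 0.21 for XAF1, 0.16 for MX1 and 0.13 for OAS2, by -0.00 for OASL and by -0.13 for OAS1, on the log2 scale.

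Long genes collect more reads, so levels were set side by side between genes as CPM per kilobase of the longest coding transcript. In vehicle the order was OAS3, MX1, OAS1, XAF1, OAS2, OASL and MX2. OAS3 was at 49.0 ± 15.4 and MX1 at 43.2 ± 3.43 CPM per kb (SD, n = 4), with libraries of 37.3 to 70.3 and 39.9 to 48.0. By this length these neighbours did not differ beyond their spread. XAF1 (14.4 ± 1.502), OAS2 (13.9 ± 1.62) and OASL (11.9 ± 1.04) overlapped as neighbours too, while OAS1 at 26.7 ± 2.18 lay between these and MX1, and MX2 was lowest at 5.73 ± 1.27. With TP-472 the order was OAS3 (12.7 ± 0.820), MX1 (9.21 ± 0.813), OAS1 (5.79 ± 0.533), OAS2 (2.95 ± 0.174), OASL (2.75 ± 0.270), XAF1 (1.41 ± 0.0952) and MX2 (0.653 ± 0.115), again in CPM per kb (SD, n = 4). Only OAS2 and OASL overlapped as neighbours in that order. XAF1 passed from the fourth to the sixth place, but with the union of its exons as the length it was the sixth in both groups. By the union of exons, OAS3 (39.9, libraries of 30.4 to 57.2) and MX1 (17.4, 16.1 to 19.3 CPM per kb) did not overlap in vehicle.

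**Figure D2:**
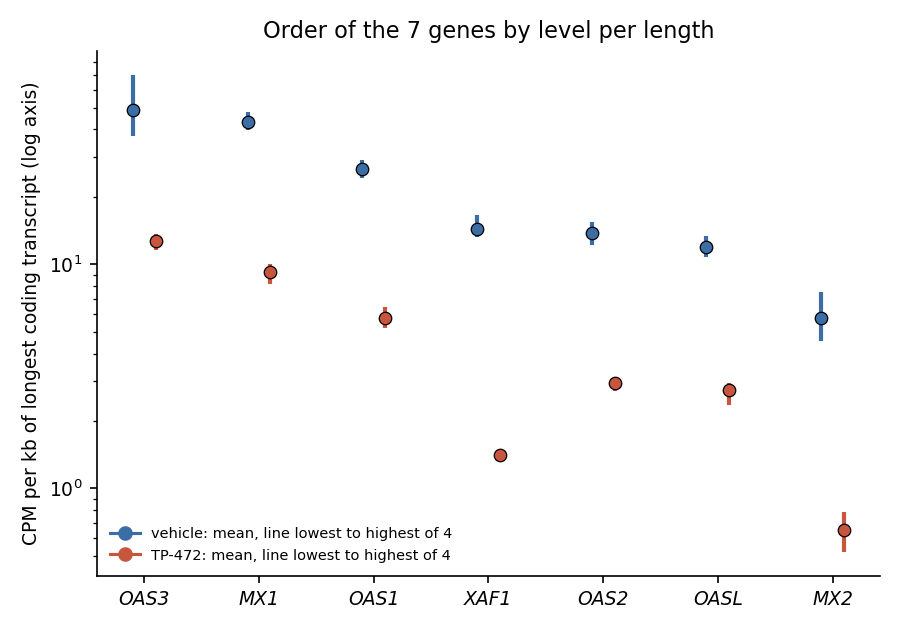
CPM per kilobase of the longest coding transcript on a log axis, for the 7 genes in the order of their vehicle level, with dots for the mean of 4 libraries and lines from the lowest to the highest library. OAS3 leads in both groups, and XAF1 lies under OAS2 and OASL with TP-472 but not in vehicle.

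Within the OAS family, whose summed level per kb was taken as the whole, OAS3 made up 40.2% to 57.8% in the vehicle libraries and 50.1% to 56.3% in the TP-472 libraries. OAS1 made up 19.99% to 31.6% and 21.4% to 25.7%, and OAS2 12.4% to 15.0% and 11.4% to 12.6%. OASL made up 9.79% to 14.4% and 9.71% to 12.4%. The shares of the 2 groups overlapped for all 4 OAS genes. The ratio of MX1 to MX2 per kb was 7.63, 7.98, 6.38 and 8.78 in vehicle and 15.1, 14.3, 12.1 and 15.6 with TP-472. No library overlapped, and in both groups replicate 3 had the lowest ratio. The sizes of the shares and of this ratio depend on the length used. By the union of exons the vehicle means were 17.4 (MX1) and 1.34 (MX2) CPM per kb. Between MX1 and MX2 the change of the log2 ratio was 0.86, between MX1 and XAF1 1.11, between MX2 and XAF1 0.25 and between OAS1 and OAS2 0.02.

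**Figure D3:**
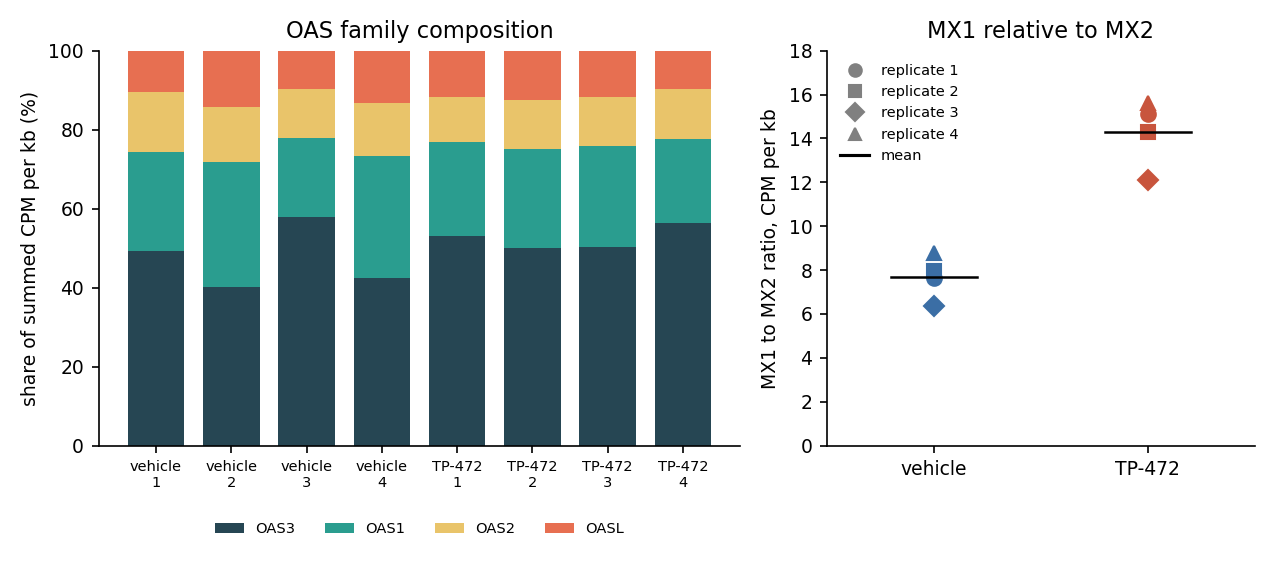
Left, the share of each OAS gene in the summed CPM per kb of the family, as bars for the 8 libraries, and right, the ratio of MX1 to MX2 in CPM per kb, with replicates as markers and the mean as the bar. OAS3 takes between 40.2% and 57.8% of the family in every library, and the MX1 to MX2 ratio is higher in each TP-472 library than in any vehicle library.

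Between vehicle libraries, with replicate 3 included, 6 of the 7 genes varied less than the typical gene, OAS3 being the exception. Their coefficient of variation was 7.96% to 31.5% (median 10.4%) in vehicle, where the median over all genes tested was 23.2%. With TP-472 it was 5.90% to 17.6% (median 8.83%), where the median over all genes was 7.89%. OAS3 had the widest spread in vehicle and MX2 the widest with TP-472. The vehicle values, that of all genes among them, included vehicle replicate 3, and the comparison with all genes was not made without it. Without vehicle replicate 3 the vehicle SD fell for OAS3 (103.6 to 50.2 CPM), MX2 (3.86 to 1.58), XAF1 (5.44 to 1.74), MX1 (11.9 to 4.91) and OAS1 (5.26 to 4.42). It rose for OAS2 (7.65 to 8.11) and OASL (3.39 to 4.16).

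Whether the signal that normally drives these genes was measurable was asked of a list of 21 interferon ligand genes. Of these, 10 had 0 counts in all 8 libraries, and 18 had at most 3 counts in any library. A count of 0 allows a level of up to 0.0778 to 0.0921 CPM in a library (3 counts, counting error only). That limit was scaled to the total count, without TMM. IFNB1 had 3, 2, 1 and 0 counts in vehicle and 4, 5, 0 and 0 with TP-472, close to the limit of detection in both groups. IFNE, an interferon of the reproductive tract, was the only ligand tested. It was at 4.09 ± 1.46 CPM in vehicle and 2.16 ± 0.938 CPM with TP-472 (SD, n = 4), a log2 fold change of -0.92 that was not called (edgeR with Benjamini-Hochberg adjustment, adjusted p = 0.0655). Without vehicle replicate 4 the adjusted p of IFNE was 0.0409 and without TP-472 replicate 4 it was 0.0273, and IFNE was called in both. With all libraries it was called by DESeq2 (adjusted p = 0.0310) and by limma-voom with quality weights (adjusted p = 0.00956).

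Among the receptors, kinases and transcription factors that carry the interferon signal, 9 of 21 genes tested fell (42.9%) and none rose by edgeR, where 14.9% of all genes tested were called lower and 12.0% higher. None was higher at an unadjusted p below 0.05 either, while DESeq2 called 1 higher. The list median was -0.36 on the log2 scale, and without vehicle replicate 3 it was -0.30, with 6 called. IRF9 and STAT2, parts of the complex that acts on promoters of OAS and MX genes, both fell, IRF9 from 54.9 ± 9.54 to 18.6 ± 2.09 CPM (SD, n = 4; log2 fold change -1.57, edgeR adjusted p = 0.000208) and STAT2 from 98.5 ± 12.0 to 37.1 ± 1.21 CPM (log2 fold change -1.41, edgeR adjusted p = 8.05e-05). IRF7, which amplifies interferon genes, fell from 24.3 ± 7.94 to 8.55 ± 1.07 CPM (log2 fold change -1.505, edgeR adjusted p = 0.00136). USP18, which removes ISG15 and dampens the receptor, fell by 0.95 on the log2 scale (edgeR adjusted p = 0.000502). JAK1, a receptor-bound kinase, was at 223 ± 19.0 and 219.5 ± 7.98 CPM and was not called (log2 fold change -0.02, edgeR adjusted p = 0.871), and IRF1 was not called either (-0.36, edgeR adjusted p = 0.0511). TYK2, another kinase bound to the receptor and named after its values were seen, was called lower (-0.76, edgeR adjusted p = 0.0168), but not without vehicle replicate 3 (-0.52). STAT3 (-0.20) and the phosphatase PTPN11 (0.29), the other uncalled genes of high level, had edgeR adjusted p of 0.225 and 0.193.

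The sensors of nucleic acids and their adaptors stand before interferon, and some of them bind double-stranded RNA as the OAS proteins do. Their list also held enzymes that edit or degrade nucleic acids, and some of the genes that fell were of this kind. Of 18 tested, 9 fell (14.9% of all genes tested) and none rose by edgeR (12.0% of all), none at an unadjusted p below 0.05 and 1 by DESeq2, with a median log2 fold change of -0.74, or -0.46 with 8 lower without vehicle replicate 3. All 3 RIG-I-like receptors fell: DHX58, IFIH1 (MDA5) and DDX58 (RIG-I) had log2 fold changes of -2.45, -2.07 and -1.59 (edgeR adjusted p of 8.83e-05, 1.74e-05 and 0.000255). STING1, the adaptor of DNA sensing, fell by 2.17 on the log2 scale from 6.49 ± 2.46 CPM (edgeR adjusted p = 0.000757). TLR3, the endosomal receptor for double-stranded RNA, fell by 1.36 (edgeR adjusted p = 0.00102). TRIM25, TBK1 and RNASEH2A, with log2 fold changes of -0.38, 0.12 and -0.15, were not called (edgeR adjusted p of 0.0563, 0.671 and 0.391).

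Of 62 other interferon-stimulated genes tested (68 listed), 44 (71.0%) fell and none rose by edgeR, beside the 14.9% of all genes called lower and 12.0% called higher, with a median log2 fold change of -1.17. This list, too, was chosen with earlier results of these data known. At an unadjusted p below 0.05, 1 was higher, and DESeq2 called 1 higher. Without vehicle replicate 3, 45 were lower and the median was -1.05. The 5 with the largest changes were TRIM22 (-2.89), IFI44L (-2.56), SAMD9L (-2.50), UBA7 (-2.43) and TRANK1 (-2.28), with edgeR adjusted p between 1.74e-05 and 7.81e-05. TRIM22 and SAMD9L restrict viruses, and UBA7 activates ISG15. Those at the highest level without a call were ZC3HAV1 (-0.44), IFITM3 (-0.33) and SAMHD1 (-0.50), with edgeR adjusted p of 0.0100, 0.0664 and 0.00560, the first and the last under the fold limit. The log2 fold changes of MX2 and XAF1 were below that of TRIM22, and that of OAS3 was below the list's median.

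**Figure D4:**
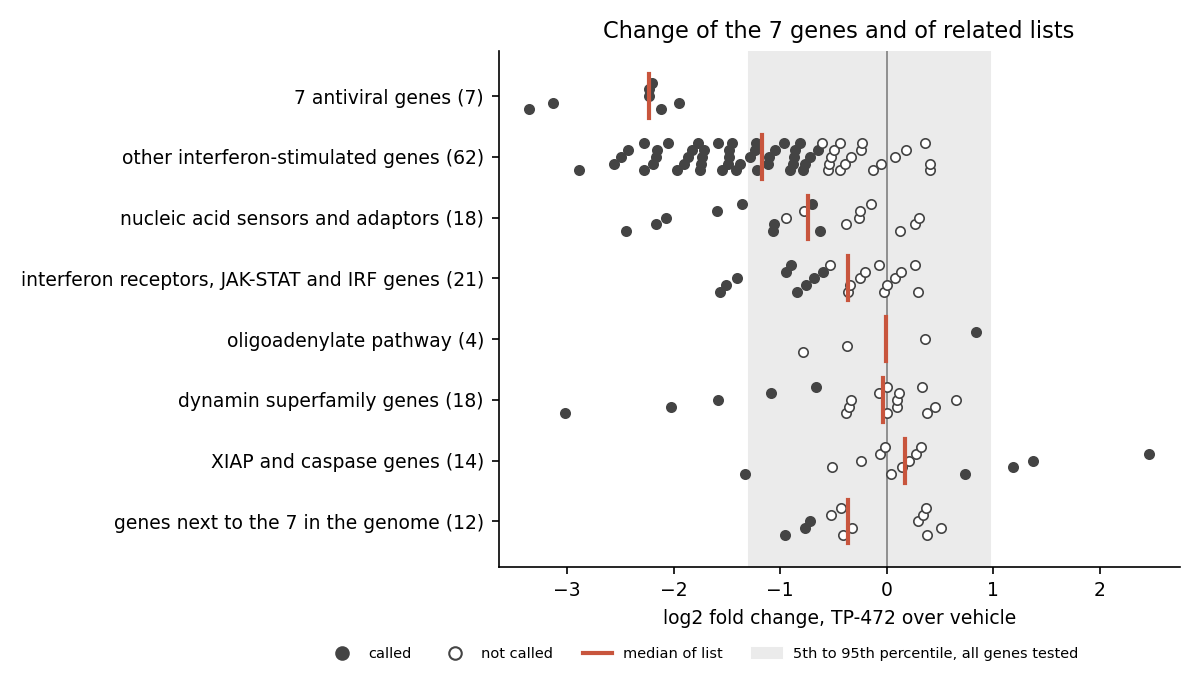
Log2 fold change of TP-472 over vehicle for the 7 genes, for lists of related genes and for the genes beside the 7 in the genome, with filled points for called genes, open points for the others, red bars for list medians and grey for the 5th to 95th percentile of all genes tested. The 7 genes lie at -1.95 or lower, and the oligoadenylate and dynamin lists have medians near 0.

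Downstream of the OAS enzymes stand genes that act on oligoadenylate or on its effects. Of 4 tested, none fell and 1 rose by edgeR, with a median of -0.01, where 14.9% and 12.0% of all genes tested were called lower and higher. At an unadjusted p below 0.05, 1 was lower, and DESeq2 called 1 lower. ABCE1, a protein of ribosome recycling, rose from 199.8 ± 66.4 to 356 ± 2.16 CPM (log2 fold change 0.84, edgeR adjusted p = 0.0242). That call was lost without vehicle replicate 1 (edgeR adjusted p = 0.0602) and without any of the TP-472 replicates (0.0548 to 0.0602), and the change was 0.62 without vehicle replicate 3. By limma-voom with quality weights ABCE1 was at 0.56, under the fold limit, and was not called. PDE12, which degrades oligoadenylate, was at 0.36 on the log2 scale, under the fold limit (edgeR adjusted p = 0.0499). AKAP7, of which a form also degrades oligoadenylate, was at -0.79 and was not called (edgeR adjusted p = 0.0530), but was called without vehicle replicate 3 (-0.96, edgeR adjusted p = 0.00468).

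Of 18 other genes of the dynamin superfamily, which holds the MX GTPases and the EHD ATPases, 5 fell and none rose by edgeR, with a median of -0.04, where 14.9% and 12.0% of all genes tested were called lower and higher. At an unadjusted p below 0.05, 1 was higher, and DESeq2 called none higher. Without vehicle replicate 3, 6 were called lower and 1 higher, the latter being EHD1, an endocytic ATPase named after its values were seen, which went from 0.65 (not called, edgeR adjusted p = 0.139) to 1.14. GBP4 and GBP1, guanylate-binding proteins that interferon also induces, fell, with log2 fold changes of -3.02 and -1.08 (edgeR adjusted p of 2.71e-05 and 0.000432). DNM3, a dynamin of endocytosis, fell by 0.66 (edgeR adjusted p = 0.00819). DNM1 fell (-1.59, edgeR adjusted p = 0.0136), as did EHD2, a protein of caveolae (-2.03, edgeR adjusted p = 0.0291), but without vehicle replicate 3 their log2 fold changes were -1.02 and -1.03. The call of EHD2 was lost without vehicle replicate 1 or any TP-472 replicate, with edgeR adjusted p of 0.0512 to 0.0824. EHD2 also lost it by limma-voom (-1.53, limma-voom adjusted p = 0.0733) and with the replicate block (-1.49). The mitochondrial GTPases OPA1 (0.09) and DNM1L (0.11) and the ER protein ATL3 (-0.08) were not called (edgeR adjusted p of 0.709, 0.687 and 0.677).

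Around XAF1, 14 genes were tested, made up of XIAP, its relatives, the caspases and other apoptosis genes, among them CYCS and APAF1. Of the 14, 1 fell and 4 rose, with a median of 0.17, where 14.9% and 12.0% of all genes tested were called lower and higher. With vehicle replicate 3 left out, 2 were called lower and 3 higher. XIAP itself was at 88.6 ± 5.17 and 74.9 ± 3.06 CPM (SD, n = 4) and was not called (log2 fold change -0.24, edgeR adjusted p = 0.0648). The inhibitor genes BIRC3 and BIRC2 rose, BIRC3 from 17.6 ± 5.32 to 96.7 ± 9.28 CPM (log2 fold change 2.46, edgeR adjusted p = 0.000188) and BIRC2 by 1.37 (edgeR adjusted p = 0.00284). CYCS, cytochrome c, rose by 1.18 (edgeR adjusted p = 0.00688). NAIP fell by 1.33 on the log2 scale from 2.40 ± 0.805 CPM (edgeR adjusted p = 0.00617). BIRC6 (0.21), BIRC5 (0.32) and APAF1 (-0.51), the adaptor of the apoptosome, were not called (edgeR adjusted p of 0.279, 0.0552 and 0.00754), and APAF1 was called without vehicle replicate 3 (-0.59).

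Genes that lie next to the 7 in the genome were examined, up to 3 on each side. Of 24 such genes 12 were tested, of which 3 fell and none rose by edgeR, with a median log2 fold change of -0.37, where 14.9% and 12.0% of all genes tested were called lower and higher. At an unadjusted p below 0.05, 1 was higher, and DESeq2 called none higher. The calls were P2RX7 (-0.95, edgeR adjusted p = 0.000601) and CAMKK2 (-0.72, edgeR adjusted p = 0.00757) beside OASL, and C17orf100 (-0.77, edgeR adjusted p = 0.0281) beside XAF1. CAMKK2 was -0.57 and no longer called without vehicle replicate 3, and C17orf100 lost its call without vehicle replicate 1 or TP-472 replicate 2, 3 or 4 (edgeR adjusted p of 0.0519 to 0.0825). BACE2, beside MX2, had a log2 fold change of -0.43 and was under the fold limit (edgeR adjusted p = 0.00699). OAS1, OAS3 and OAS2 follow each other at distances of 5129 and 5145 bases. Genes annotated on the other strand across OAS1 to OAS3 (AC004551.1), MX1 (AP001610.1) and XAF1 (PRAL) had 0 counts in all 8 libraries.

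The genes whose profile over the 8 libraries was most like the mean profile of the 7 were found by the root-mean-square difference of log2 CPM, each centred on its mean. Of the 10 nearest among 14066 other genes, those reported here were COL1A2 (0.106), UBA7 (0.145), SPAAR (0.164), TRANK1 (0.180), DHX58 (0.182), SLC15A3 (0.192), BST2 (0.202), THBS3 (0.210) and SERPINF1 (0.224), where the median over all was 1.25. SERPINF1 was under 1 CPM in every TP-472 library and passed the filter through the vehicle libraries alone, so its place here was in part set by the filter. UBA7, TRANK1, DHX58 and BST2 were in the lists above, and BST2 encodes tetherin, which holds virus particles at the cell surface. COL1A2, a collagen chain, was the nearest, going from 589 ± 77.3 to 98.8 ± 4.83 CPM (SD, n = 4; log2 fold change -2.58). By the same measure the 7 genes themselves stood at 0.121 (MX1), 0.146 (OAS2), 0.193 (OAS1), 0.208 (OASL), 0.340 (OAS3), 0.353 (MX2) and 0.451 (XAF1) from their mean.

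**Figure D5:**
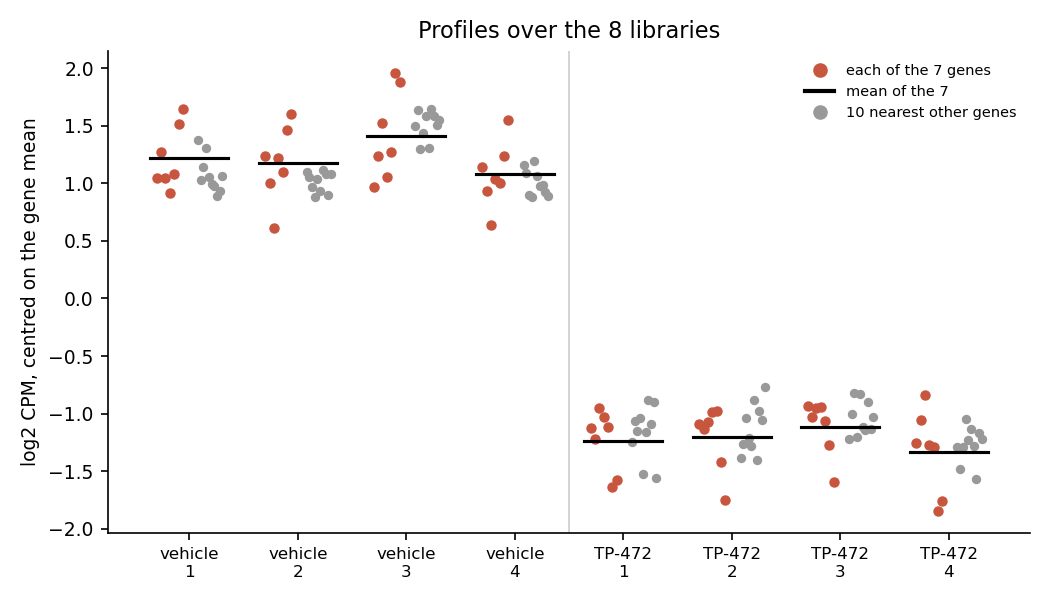
Log2 CPM in each library, centred on the mean of each gene, for the 7 genes (red), their mean (bars) and the 10 nearest other genes (grey). The mean is above 0 in the 4 vehicle libraries, highest in replicate 3, and below 0 in the 4 TP-472 libraries.

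Markers of other cell types were read beside the 7 genes. Of 12 immune markers, 8 had at most 3 counts in any library, PTPRC had 1 count over all 8 libraries and CD3E, MS4A1 and NKG7 had 0. Their summed level was 8.70 to 11.2 CPM in vehicle and 10.5 to 14.0 CPM with TP-472. CD68 was the most abundant and the only one that passed the filter, and it was not called (log2 fold change 0.47, edgeR adjusted p = 0.0307). DESeq2, with its own filter, tested 4 and called 1 lower, ITGAX, which had 56, 20, 94 and 33 counts in vehicle and 32, 23, 12 and 18 with TP-472, with overlap. Of 5 endothelial markers none passed the filter, and VWF, the most abundant, reached at most 10 counts. DESeq2 tested 3 of them and called 1 higher, PECAM1, which had 0, 1, 0 and 1 counts in vehicle and 9, 7, 4 and 9 with TP-472, without overlap. Of 7 epithelial markers 3 passed the filter: KRT18 rose by 1.08 (edgeR adjusted p = 0.000726), KRT19 fell by 0.85 (edgeR adjusted p = 0.0151; 0.0510 and not called without TP-472 replicate 1) and KRT8 was not called (0.52, edgeR adjusted p = 0.0959). DESeq2 also called EPCAM lower, which had 24, 22, 29 and 28 counts in vehicle and 8, 11, 9 and 8 with TP-472. Of the smooth muscle markers 7 were tested. DES and LMOD1 were under 1 CPM in every TP-472 library and passed the filter through the vehicle libraries alone, so they had to differ. DES was at 3.25 ± 0.203 and 0.629 ± 0.169 CPM and LMOD1 at 2.53 ± 1.04 and 0.702 ± 0.172 CPM (SD, n = 4). Of the other 5, TAGLN fell (-0.67, edgeR adjusted p = 0.00397), where 14.9% of all genes tested were called lower, and the median was -0.55. That median is the value of ACTA2, which was under the fold limit (edgeR adjusted p = 0.00426) and was called without vehicle replicate 1 or 3 (-0.60 in both). With vehicle replicate 3 left out, the median of these 5 was -0.14. MYH11, under the filter, had 0, 0, 0 and 1 counts in vehicle and 10, 8, 7 and 10 with TP-472, without overlap, and was the 1 marker of this list that DESeq2 called higher. CALD1 (-0.06), CNN1 (0.13) and SMTN (-0.68) were not called (edgeR adjusted p of 0.646, 0.696 and 0.149).

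The transcripts of the targets of TP-472, whose proteins the compound binds, were measured as well. BRD9 was at 80.1 ± 23.1 CPM in vehicle and 71.5 ± 3.17 CPM with TP-472 (SD, n = 4) and was not called (log2 fold change -0.16, edgeR adjusted p = 0.486), and BRD7 was at 56.2 ± 0.583 and 60.8 ± 2.65 CPM (0.11, edgeR adjusted p = 0.324). Of the 7 genes in the list of BRD9, BRD7 and non-canonical BAF subunits none was called by edgeR, with a median of -0.19, and 3 had an unadjusted p below 0.05. DESeq2 called BICRAL (-0.68, adjusted p = 0.0224) and SMARCA4 (-1.01, adjusted p = 0.0229), edgeR with RLE or upper-quartile scaling called BICRAL, and without a filter edgeR called BICRA, BICRAL and SMARCA4. Of the other 5, SMARCA4 (-1.03), BICRA (-1.84) and BICRAL (-0.69) had edgeR adjusted p of 0.0685, 0.0621 and 0.0519 and were called without vehicle replicate 2 or 4, and SMARCD1 (-0.19) and SMARCC1 (-0.16) had 0.480 and 0.183. Without vehicle replicate 3, the log2 fold changes of SMARCA4 and BICRA were -0.45 and -0.53.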

How the data were processed

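RNA of SK-UT-1 cells given TP-472 (5 µM, 48 h) or DMSO was sequenced in 4 libraries each. The study's methods describe strand-specific total RNA libraries, while the sample descriptions name a TruSeq RNA kit. The values deposited by the authors are estimated counts, that is, Salmon (1.4.0 in the submitters' processing notes, GRCh38) transcript estimates summed by gene with GENCODE 34, neither normalized nor filtered. All libraries were used.

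Counts were rounded, genes over 1 CPM in 4 or more of the 8 libraries were kept and scaled by TMM, and TP-472 was compared with vehicle with edgeR 4.0.16 (quasi-likelihood F test, R 4.3.3) with Benjamini-Hochberg adjustment over 14073 genes. A call needed an adjusted p below 0.05 and a fold change over 1.5. The threshold follows the study's methods. Likeness used log2 CPM with a prior count of 2. Positions are those of GENCODE 29 on GRCh38, joined by identifier without version, for 99.3% of genes. Whether counting or the spread between replicates limits precision more at these depths was not tested. No library was a copy of another (lowest mean chi-square between a pair 12.8). The calculations were tested on simulated data.

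The 7 genes and all gene lists were chosen with earlier results of these data known. Named are the 7 genes, every gene of lists of up to 10 tested genes, in longer lists the 5 called genes with the largest change and the 3 uncalled genes with the highest level, JAK1, STAT2, IRF9, IRF1, IRF7 and XIAP for their role, called neighbours and the 10 genes of most similar profile. The values of some genes under this rule are not reported here, although counts and medians of lists include them. Other genes at or near 0 (IFNB1, single cell type markers, overlapping genes), BACE2, TYK2 and EHD1 were named after their values were seen. Alternatives were RLE, upper-quartile and total-count scaling, DESeq2 1.42.0, limma-voom (limma 3.58.1) with and without quality weights, robust estimation, other filters, unrounded counts, a replicate block, other fold limits and each library left out.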

Additional observations from a re-analysis of the deposited data

Results flagged for a closer look

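In each group of 4 libraries, the highest or lowest was compared with the others by its gap relative to the group's range (Dixon's criterion). Of 156 groups, over 78 named genes, 16 passed, and chance flags about 1 in 20. None was among the OAS, MX and XAF1 genes. Vehicle replicate 3 was the extreme library in 10 of the 16. It was the lowest vehicle library for JAK1 (195 CPM), TLR3 (11.8 CPM), ATL3 (139 CPM), IFI44L (57.6 CPM) and SAMHD1 (127 CPM). It was the highest for UBA7 (38.0 CPM), BRD9 (115 CPM), BICRA (22.5 CPM), SMTN (158 CPM) and THBS3 (25.3 CPM). Of these, the largest gap relative to the level was that of BICRA, whose other vehicle libraries were at 2.501 to 4.21 CPM. Vehicle replicate 1 was the lowest for TAGLN (27.2 CPM) and CD68 (6.68 CPM). Among the TP-472 libraries, replicate 2 was the highest for IRF7 (10.1 CPM) and the lowest for IFIH1 (36.5 CPM). Replicate 4 was the highest for BIRC3 (111 CPM) and APAF1 (81.0 CPM).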

How the results depend on the processing

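All 140 values of the 7 genes under the 20 alternatives that change the fit stayed within the spread between replicates, with OAS3 between -2.07 and -1.63 and XAF1 between -3.40 and -3.23 on the log2 scale. The number of genes changed (3789; 1693 higher, 2096 lower) was 5575 with DESeq2 (2678 higher, 2897 lower) and 1704 with a limit of 2-fold (639 higher, 1065 lower). With 1 library left out it ran from 2486 (without TP-472 replicate 3; 1165 higher, 1321 lower) to 4110 (without vehicle replicate 2; 1785 higher, 2325 lower). The count of JAK-STAT and IRF genes called (9) was 5 with voom quality weights and 3 with the 2-fold limit. That of the oligoadenylate pathway (1) was 2 with RLE or upper-quartile scaling, DESeq2 or no fold limit. With voom quality weights it was also 2, ABCE1 not among them. It was 0 with the 2-fold limit, and 0 to 2 with 1 library left out. That of neighbours (3) was 5 with DESeq2, filterByExpr or no fold limit, 0 with the 2-fold limit, and 2 to 4 with 1 library left out. The other interferon-stimulated genes called lower (44) were 34 with the 2-fold limit, 50 with no fold limit and 40 to 45 with 1 library left out. The cause of these shifts was not tested. Of 75 other named genes, 14 had a call changed by one of the 20 alternatives that change the fit, and none changed sign with a call. With the 2-fold limit 10 of the 75 lost their call, and with no fold limit 6 gained one.

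Replicate numbers did not pair the libraries: the correlation of deviations between libraries of the same number was -0.06, 0.12, -0.17 and -0.18, and no library pair of one number was mutually the best match. With the replicate block, 3055 genes were called (1500 higher, 1555 lower). With 4 libraries a group, the lowest counts of the 7 genes were those of MX2, at 60 to 86 per TP-472 library. Interferon ligands at or under 3 counts cannot be compared.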
